A study of Mus musculus with 10 samples.

Results

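The genes described here make cholesterol and fatty acids. They were 32 genes taken by name from those pathways, with earlier results of these data known. They comprised 18 enzymes of sterol synthesis, 5 genes that regulate the pathways or carry sterol, and 9 enzymes of fatty acid synthesis. A probe set counted for a gene where that gene was the only symbol listed for it, and where several did, the one with the highest mean over the 10 arrays was used. By this rule 31 of the 32 genes had a probe set, among 19938 named genes of the array, and Acat2 was not analysed here. On all 10 arrays the 31 genes exceeded the table median of 6.55 log2, so each passed the filter on low values and was among the 10971 genes tested.

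The cells were mesenchymal stromal cells of bone marrow, which grow attached to the dish and can form bone and fat. They came from female C57BL/6J mice aged 6 to 8 weeks, carried no named genetic change or treatment, and made up 5 preparations, numbered MSC I to MSC V, each measured on 2 arrays. All were grown in MesenCult medium with 20% of its mesenchymal supplement, penicillin, streptomycin and kanamycin, and studied at passage 16 to 17, so they describe cells long kept in culture. No preparation served as a control, and it is not stated that the 2 replicates came from separate cultures. The p-values therefore rest on the spread between arrays of a preparation, which could be purely technical.

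Cholesterol is built from acetyl-CoA through mevalonate, isoprenoids, squalene and lanosterol, and fatty acids are built from the same precursor. The transcription factors SREBP-1 and SREBP-2, encoded by Srebf1 and Srebf2, switch on the genes of both pathways. They are held in the membrane of the endoplasmic reticulum by the escort protein Scap and the anchor Insig1 while sterol is plentiful, and are released when it falls. In stromal cells the products go into new membranes and, in cells that turn into fat cells, into stored lipid.

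The arrays were on a like scale, with medians from 6.45 to 6.63 log2. Over all genes MSC I and IV differed most from the rest: in limma's test of each preparation against the mean of the other four, 13% and 11% of tested genes were called, against 5.14% in MSC II, 2.27% in MSC III and 3.55% in MSC V. Of 11 stromal markers, Pdgfrb, Itgb1, Col1a1, Col1a2 and Cd44 were above the table median on all 10 arrays, while Vcam1, Cxcl12 and Pdgfra were lower in MSC IV (differences of -3.49, -3.13 and -2.36 log2). Eng was above the median in MSC IV alone, Nt5e was higher in MSC IV by 4.26 and below the median on all arrays of MSC I, and Thy1 was above it on 3 of 10 arrays. Of 7 blood cell markers, Ptprc, Itgam, Csf1r, Adgre1, Cd3e and Ly6g were below the median on all arrays (4.70 to 5.41), and Cd68 was higher in MSC V by 1.60 log2. The 5 endothelial markers were also below it (4.79 to 5.32). In a bulk sample, fewer cells of a type and less RNA per cell cannot be told apart.

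The stretches before the start of 5 of the genes show what most of the group shares in sequence and where it parts. Hmgcs1 makes the HMG-CoA from which mevalonate is formed, Idi1 interconverts the building blocks of the isoprenoids, Sc5d acts near the end of the sterol pathway, Elovl6 lengthens fatty acids, and Scap escorts SREBP. Each line gives the 250 bases before the start, on the strand of the gene, from RefSeq on GRCm38.p6. Capitals mark CCAAT or its reverse complement ATTGG, the box bound by the factor NF-Y, and TCACNCCAC, a form of the sterol regulatory element bound by SREBP. The places are chr13:119690101-119690350 on the plus strand for Hmgcs1, chr13:8885356-8885605 plus for Idi1, chr9:42264301-42264550 minus for Sc5d, chr3:129532136-129532385 plus for Elovl6 and chr9:110333038-110333287 plus for Scap, the upstream one of its starts.
Hmgcs1: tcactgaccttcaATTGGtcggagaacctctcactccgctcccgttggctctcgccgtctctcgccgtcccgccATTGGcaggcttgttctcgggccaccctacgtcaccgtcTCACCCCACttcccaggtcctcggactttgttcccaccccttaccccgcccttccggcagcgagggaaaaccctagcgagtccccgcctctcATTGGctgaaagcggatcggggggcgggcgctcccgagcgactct
Idi1: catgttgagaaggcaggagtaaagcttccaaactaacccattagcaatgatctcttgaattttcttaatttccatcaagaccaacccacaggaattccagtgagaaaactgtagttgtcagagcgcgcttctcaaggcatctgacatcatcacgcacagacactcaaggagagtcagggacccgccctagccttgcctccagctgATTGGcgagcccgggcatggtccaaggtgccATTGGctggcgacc
Sc5d: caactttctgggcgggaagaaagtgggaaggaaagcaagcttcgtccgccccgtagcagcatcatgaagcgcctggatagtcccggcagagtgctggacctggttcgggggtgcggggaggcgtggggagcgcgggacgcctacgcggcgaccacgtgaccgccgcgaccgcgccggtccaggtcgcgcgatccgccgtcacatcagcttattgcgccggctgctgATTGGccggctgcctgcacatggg
Elovl6: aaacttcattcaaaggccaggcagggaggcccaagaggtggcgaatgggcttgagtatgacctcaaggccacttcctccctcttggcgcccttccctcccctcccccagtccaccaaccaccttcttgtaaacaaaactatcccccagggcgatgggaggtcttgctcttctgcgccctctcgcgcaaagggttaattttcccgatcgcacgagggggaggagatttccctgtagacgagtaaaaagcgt
Scap: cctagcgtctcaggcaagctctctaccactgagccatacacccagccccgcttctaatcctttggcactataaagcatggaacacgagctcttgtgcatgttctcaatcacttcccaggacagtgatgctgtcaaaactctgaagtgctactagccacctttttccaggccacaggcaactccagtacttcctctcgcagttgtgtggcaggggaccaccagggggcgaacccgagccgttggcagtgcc

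Of the 31 measured genes, 24 matched a start in the RefSeq table, with 31 windows of 300 bases that ran from 250 before to 50 after the start. CCAAT, read on both strands, stood in a window of 20 of the 24 genes (83.3%), against 43.4% of 8795 tested genes and 37.41% of 32851 windows in the table. All 14 matched sterol enzymes had it. Of 4 matched regulators Scap lacked it, and of 6 matched fatty acid enzymes Acaca, Elovl6 and Fads2 lacked it. Hmgcs1 had 3 copies in the stretch printed above, 237, 176 and 45 bases before its start, and Idi1 had 2, at 45 and 14 bases. TCACNCCAC stood in 1 gene, Hmgcs1, 137 bases before the start (1.4% of tested genes had it). CACGTG, an E-box, was in 5 of 24 genes (20.8%, against 12.1%), and GGGCGG, the box bound by Sp1, in 20 (83.3%, against 70.9%). No motif of the 4 holds another within it, and these matches describe letters, not binding. Fdps, Fdft1, Sqle, Stard4, Scd1, Scd2 and Fads1 had no entry.

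Over all preparations, 7 of the 31 genes differed: Idi1, Sqle, Hsd17b7 and Sc5d of the sterol enzymes, the sterol carrier Stard4, and the fatty acid enzymes Elovl6 and Scd1. Calling a gene took an adjusted p under 0.05 in limma's moderated F test and preparation means at least 1 log2 apart, a fold of 2. The background was 29.1% of all tested genes. At an adjusted p under 0.05 with no minimum, 8 genes passed, Ebp being the eighth, against 52.2% of tested genes. Neither count of these genes exceeded the share of the background. The median range of the 31 was 0.72 log2, against 0.75 over all tested genes.

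**Figure D1:**
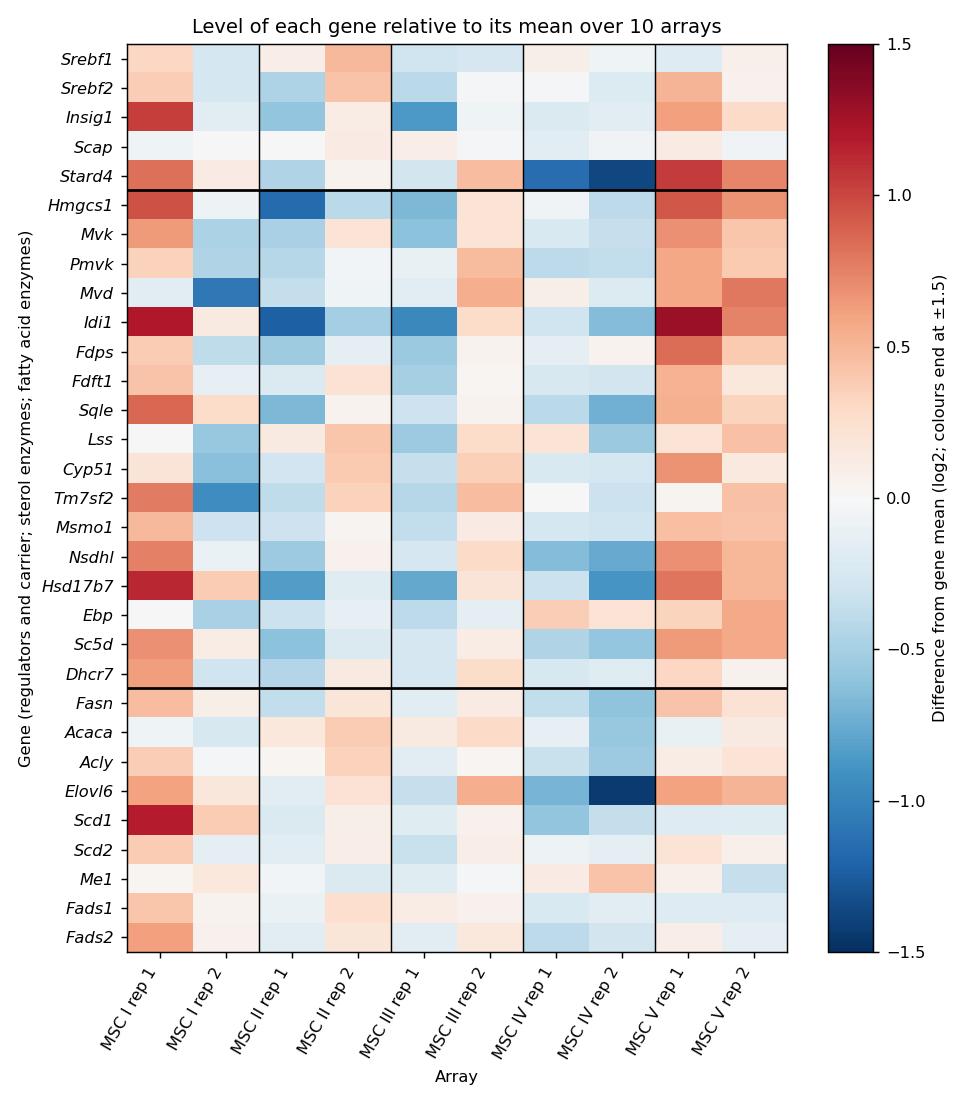
Level of each of the 31 genes on each of the 10 arrays, as the log2 difference from the gene's mean over arrays (red higher, blue lower, colours ending at 1.5), with regulators and carrier at the top, sterol enzymes in the middle and fatty acid enzymes at the bottom. MSC IV is low for Stard4 and Elovl6, and MSC V is high for most sterol enzymes. Replicate 1 of MSC I and replicate 2 of MSC II and III stand above their partners in every sterol enzyme and in most other genes.

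Stard4, a small protein that moves cholesterol between membranes, had the widest range. Replicate 1 and 2 measured 10.11 and 9.40 log2 in MSC I, 8.82 and 9.34 in MSC II, 9.003 and 9.74 in MSC III, 8.14 and 7.91 in MSC IV, and 10.33 and 10.01 in MSC V. Both MSC IV arrays lay below the other 8, and MSC V and MSC I overlapped at the top. The range of means was 2.14 log2, a fold of 4.42 (adjusted p = 0.00862), and the call held under all 18 alternatives.

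The enzymes of the mevalonate and isoprenoid steps were, in order, Hmgcs1, Mvk, Pmvk, Mvd, Idi1 and Fdps. Idi1 measured 11.99 and 10.93 in MSC I, 9.57 and 10.29 in MSC II, 9.82 and 11.07 in MSC III, 10.50 and 10.15 in MSC IV, and 12.10 and 11.54 in MSC V. MSC V and replicate 1 of MSC I were high and MSC II was low, and replicates of MSC I and III lay more than 1 log2 apart. The range was 1.89 log2 (fold 3.70, adjusted p = 0.0477), and a further Idi1 probe set gave a range of 1.85. Hmgcs1, its partner in the lines above, gave 11.53 and 10.50 in MSC I, 9.43 and 10.18 in MSC II, 9.91 and 10.79 in MSC III, 10.53 and 10.19 in MSC IV, and 11.52 and 11.26 in MSC V. As in Idi1, MSC V had the highest mean and MSC II the lowest, but the range of 1.58 log2 did not pass the F test (adjusted p = 0.0667).

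Mvd, which makes isopentenyl diphosphate, was ordered another way. It measured 8.62 and 7.71 in MSC I, 8.42 and 8.71 in MSC II, 8.63 and 9.32 in MSC III, 8.87 and 8.58 in MSC IV, and 9.36 and 9.57 in MSC V. MSC I held the lowest array and MSC V the 2 highest. The range of 1.30 log2 did not pass (adjusted p = 0.0695). Fdps, which joins isoprenoid units, also had both MSC V arrays above all others, at 11.45 and 11.001 against 10.05 to 10.99 elsewhere, with a range of 0.95 (adjusted p = 0.135). These were the 2 genes with both MSC V arrays above the other 8, against 4.29% of tested genes. Mvk (range 0.84) and Pmvk (0.86), the mevalonate kinases, did not pass either.

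**Figure D2:**
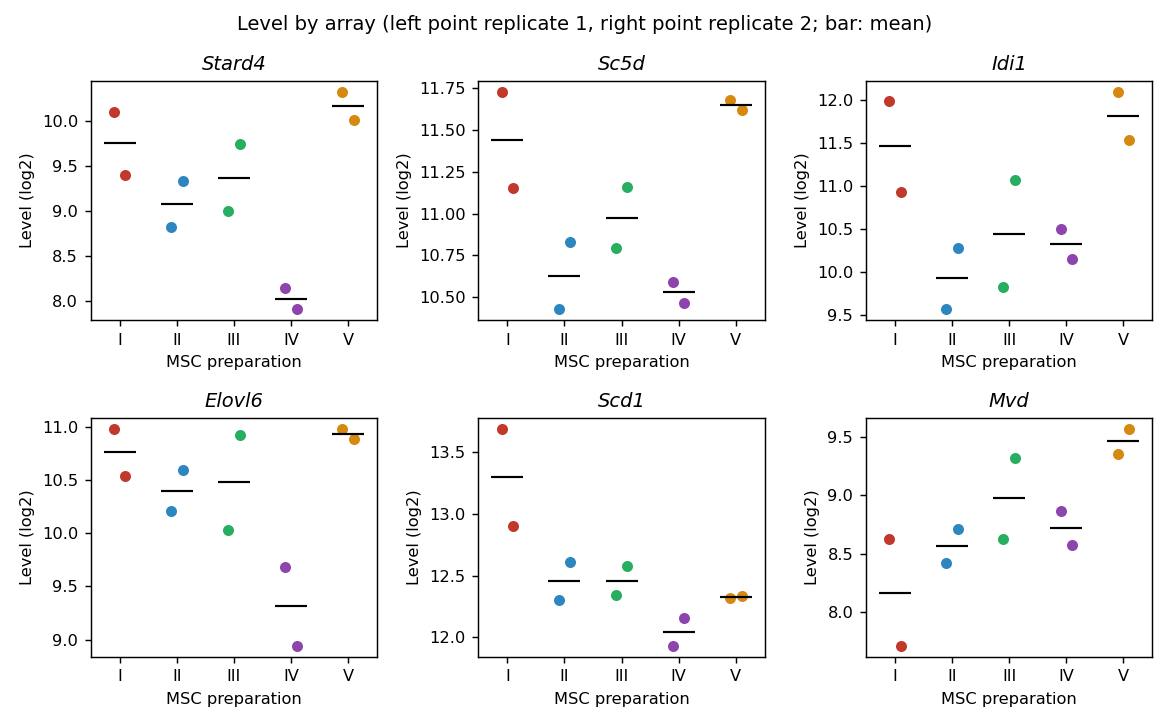
Level (log2) of Stard4, Sc5d, Idi1, Elovl6, Scd1 and Mvd on each array, replicate 1 as the left point and replicate 2 as the right point of each preparation, with bars at the mean of 2 arrays; axes differ and do not start at 0. Stard4 and Elovl6 are lowest in MSC IV, Scd1 is highest in MSC I, and Mvd has its lowest array in MSC I and its highest 2 in MSC V.

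Among the enzymes from squalene to cholesterol, Sc5d, which places a double bond in the sterol ring, differed with the least spread. Its values were 11.73 and 11.15 in MSC I, 10.43 and 10.83 in MSC II, 10.79 and 11.16 in MSC III, 10.59 and 10.47 in MSC IV, and 11.68 and 11.62 in MSC V. MSC IV and II were low, and both MSC V arrays lay between the 2 arrays of MSC I. The range was 1.12 log2 (adjusted p = 0.0156) and was called under all 18 alternatives.

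Sqle, the squalene epoxidase, measured 11.86 and 11.28 in MSC I, 10.32 and 11.05 in MSC II, 10.68 and 11.05 in MSC III, 10.59 and 10.27 in MSC IV, and 11.53 and 11.33 in MSC V (range 1.14, adjusted p = 0.0419). Hsd17b7, a sterol ketone reductase, measured 11.90 and 11.15 in MSC I, 9.93 and 10.59 in MSC II, 10 and 10.97 in MSC III, 10.45 and 9.89 in MSC IV, and 11.58 and 11.27 in MSC V (range 1.36, adjusted p = 0.0472). In both genes all arrays of MSC I and V lay above all arrays of the other preparations. Nsdhl, which works beside Hsd17b7, had both MSC IV arrays (10.70 and 10.59) below the other 8, which ran from 10.80 to 12.10, and its range of 1.29 log2 missed the threshold (adjusted p = 0.0546).

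Ebp, a sterol isomerase, had an adjusted p of 0.0345 with a range of 0.72, under the minimum, and was one of 3 genes in which MSC IV was above the mean of the other four. Its MSC IV arrays were 10.58 and 10.42 and its MSC V arrays 10.55 and 10.78, all above the arrays of MSC I, II and III (9.72 to 10.22). The rest of these enzymes did not pass: Fdft1 (range 0.59), Lss (0.61), Cyp51 (0.66), Msmo1 (0.72), Dhcr7 (0.40) and Tm7sf2 (0.40). Tm7sf2, a sterol reductase, had the highest adjusted p of the 31 genes (0.96), with 9.28 and 7.57 log2 on the 2 arrays of MSC I, which enclosed all other arrays.

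No call was made for the transcription factors Srebf1 and Srebf2 or for Scap and Insig1. Srebf2 means ran from 10.58 ± 0.27 (SD, n = 2) in MSC III to 11.09 ± 0.32 in MSC V, a range of 0.51 (adjusted p = 0.66), and Srebf1 means from 8.55 ± 0.038 in MSC III to 9.12 ± 0.27 in MSC II, a range of 0.57 (adjusted p = 0.276). Scap had the smallest range of all 31 genes, 0.17 log2, with arrays between 9.55 and 9.84. Insig1, itself a target of SREBP, ran from 10.55 to 12.45 over arrays with a range of means of 0.92 (adjusted p = 0.244), and the 2 arrays of MSC I alone lay 1.2 log2 apart. Stard4 was thus the called gene of 5 in this group.

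Elovl6 and Scd1 were the called genes of 9 fatty acid enzymes. Elovl6 measured 10.99 and 10.54 in MSC I, 10.21 and 10.59 in MSC II, 10.04 and 10.93 in MSC III, 9.68 and 8.94 in MSC IV, and 10.98 and 10.89 in MSC V. Both MSC IV arrays lay below the other 8, which overlapped (range 1.63, adjusted p = 0.03). Scd1, which puts a double bond into stearate, measured 13.69 and 12.90 in MSC I, 12.30 and 12.61 in MSC II, 12.34 and 12.58 in MSC III, 11.93 and 12.16 in MSC IV, and 12.32 and 12.34 in MSC V. MSC I lay above all other arrays and MSC IV below them (range 1.25, adjusted p = 0.0286).

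Scd2, an isoform of the same desaturase, varied less: its arrays ran from 12.83 to 13.54, with a range of means of 0.26 (adjusted p = 0.645). Fasn, the fatty acid synthase, and Acly, which supplies acetyl-CoA from citrate, each had both MSC IV arrays below the other 8, at 10.83 and 10.59 for Fasn and 10.81 and 10.60 for Acly. Their ranges of 0.81 and 0.63 log2 did not pass (adjusted p = 0.0684 and 0.0669). Acaca, which makes malonyl-CoA, had a range of 0.61 (adjusted p = 0.0841). The desaturases Fads1 (0.43) and Fads2 (0.67) and the NADPH source Me1 (0.41) did not pass either, and Me1 was the gene with its highest mean in MSC IV.

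The 7 calls did not rest equally on the arrays. Stard4 and Sc5d kept theirs without any array in turn, and without replicate 1 of MSC I they alone of the 7 did so. The counts that follow can include genes from outside the 7. The count was 4 without replicate 1 of MSC I, 3 without replicate 1 and 2 without replicate 2 of MSC IV, 3 without either array of MSC V, 5 or 6 without an array of MSC II or III, and 9 without replicate 2 of MSC I. Scd1 lost its call without replicate 1 of MSC I or either MSC IV array, and Elovl6 without replicate 1 of MSC I, replicate 2 of MSC IV or either MSC V array. Idi1, Sqle and Hsd17b7 each lost theirs without 7 of the 10 arrays in turn, those of MSC IV, those of MSC V and replicate 1 of MSC I among them. Idi1 and Hsd17b7 also lost theirs without either MSC II array, and Sqle without either MSC III array.

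MSC IV had lower levels of the sterol carrier and of the elongase than the other four preparations. Stard4 was lower by 1.57 ± 0.26 log2 (SE, a fold of 2.97, adjusted p = 0.00387) and Elovl6 by 1.33 ± 0.28 (fold 2.52, adjusted p = 0.00956), 2 of 31 genes against 7.7% of all tested genes called lower. Nsdhl (-0.87 ± 0.25), Sc5d (-0.65 ± 0.18), Fasn (-0.61 ± 0.18) and Acly (-0.55 ± 0.14) had adjusted p-values from 0.0238 to 0.0345 at less than 1 log2 and were not called. Of the 31 differences 28 were negative, with a median of -0.32 against 0.00987 over all tested genes, and MSC IV held the lowest mean in 20 genes: 11 of 17 sterol enzymes and 7 of 9 fatty acid enzymes. Both MSC IV arrays lay below the other 8 in 7 genes, Nsdhl, Stard4, Fasn, Acly, Elovl6, Scd1 and Fads2, against 12.1% of tested genes. Without replicate 2 of MSC IV neither call held (adjusted p = 0.0533 for Stard4 and 0.119 for Elovl6). In the same preparation 6 of 9 proliferation genes (median -1.58) were lower. Of 10 adipocyte genes, 4 passed the filter through MSC I alone, so no count against the other four is given. Pair by pair, 1 of the 10 was called lower in MSC IV than in MSC II, 2 than in MSC III and 2 than in MSC V. Of all 10971 tested genes, 647, 606 and 818 were called lower in MSC IV in these pairs. The 10 still include the 4 genes, which were below the table median in all preparations of these pairs. The part of either list in these values was not tested.

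MSC V had the highest mean in 21 of 31 genes, 15 of them among the 17 sterol enzymes. Stard4 was higher than in the other four by 1.11 ± 0.26 log2 (fold 2.16, adjusted p = 0.0329), the 1 call of 31, against 2.11% of all tested genes called higher. Sc5d (0.76 ± 0.18, adjusted p = 0.0364) passed the p but not the size. The enzymes of the early steps had large differences with wide errors that did not pass, such as Idi1 (1.28 ± 0.39, adjusted p = 0.0758), Hmgcs1 (1.00 ± 0.33, adjusted p = 0.0911), Mvd (0.86 ± 0.26, adjusted p = 0.0744) and Fdps (0.77 ± 0.25, adjusted p = 0.0821). Before adjustment 13 genes had p under 0.05, all 13 with positive differences, and the share of all tested genes at that p was not counted. The median difference was 0.61 in the 17 sterol enzymes, 0.016 in the 9 fatty acid enzymes and 0.51 in all 31, against -0.0141 over all tested genes, and 26 of 31 differences were positive. The Stard4 call was lost without either array of MSC IV or V, without replicate 1 of MSC II or III (adjusted p up to 0.209 over its alternatives), and with MSC IV left out of the reference. Without replicate 2 of MSC III 2 genes were called. Cd68, the blood cell marker above the table median, was higher in MSC V, with Ptprc, Itgam, Csf1r and Adgre1 below that median there. Of 10 adipocyte genes, 1 was called higher and 1 lower in MSC V than in MSC II. Against MSC III 0 were called, and 2 were higher in MSC V than in MSC IV. The part of Cd68 or of the adipocyte genes in these values was not tested.

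**Figure D3:**
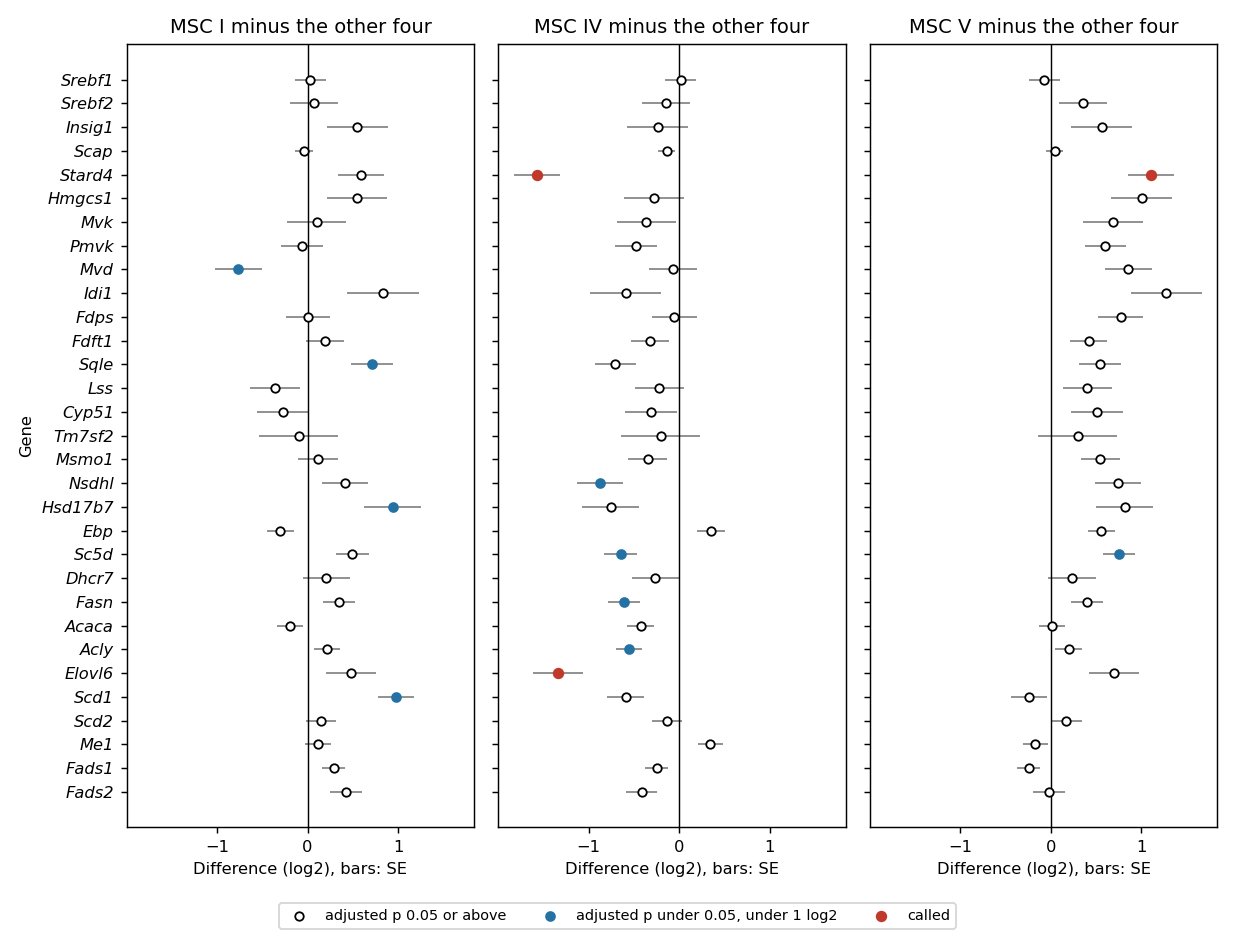
Difference in level (log2) of each gene between MSC I, MSC IV or MSC V and the mean of the other four preparations, with bars of 1 SE from the fit; red points were called, blue points had an adjusted p under 0.05 at less than 1 log2. Stard4 (-1.57) and Elovl6 (-1.33) are red in MSC IV and Stard4 (1.11) in MSC V, most points of MSC IV lie left of 0, and most of MSC V lie right of it.

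MSC I, the preparation with high adipocyte genes, had none of the 31 genes called in either direction, against 13% of all tested genes. In limma's test 6 genes had an unadjusted p under 0.05, and 4 an adjusted p under 0.05 at less than 1 log2. These were Scd1 (0.97 ± 0.20, adjusted p = 0.00707), Hsd17b7 (0.94 ± 0.32, adjusted p = 0.0455), Sqle (0.72 ± 0.23, adjusted p = 0.0385) and, in the other direction, Mvd (-0.77 ± 0.26, adjusted p = 0.0476). Scd1 was the gene with both MSC I arrays above all others, against 15.1% of tested genes. The median of the 31 differences was 0.19, but it was -0.0505 without replicate 1 of MSC I and 0.51 without replicate 2. Genes called higher numbered 3 without replicate 2 of MSC I, 2 without replicate 2 of MSC II or of MSC III, and 1 without either array of MSC IV. Without replicate 1 of MSC I 1 gene was called lower, Mvd (-1.22, adjusted p = 0.0237). Of 10 adipocyte genes 4 were above the table median in MSC I alone, and the other 6 were all higher in MSC I. Their part in the values of the 31 genes was not tested.

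MSC II and MSC III had 0 called genes, against 5.14% and 2.27% of all tested genes. In MSC II 3 genes had an unadjusted p under 0.05 in limma's test, all negative, Idi1 (-1.09 ± 0.39, adjusted p = 0.0934), Hmgcs1 (-0.97 ± 0.33, adjusted p = 0.0812) and Sc5d (-0.52 ± 0.18, adjusted p = 0.0832), and without replicate 2 of MSC I 1 gene was called. In MSC III 0 genes had an unadjusted p under 0.05. The median differences of the 31 genes, -0.16 and -0.0904, took the other sign without replicate 1 of the same preparation (0.0889 and 0.11). In MSC IV and V the median kept its sign without each of the 10 arrays in turn, at -0.42 to -0.22 and 0.41 to 0.61.

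Set against each other pair by pair, MSC I and MSC IV had the most called genes, 6 of 31, all higher in MSC I, against 12.3% of all tested genes called higher and 20.3% called either way. They were Stard4 (1.73 ± 0.32, adjusted p = 0.00443), Elovl6 (1.45 ± 0.35), Hsd17b7 (1.36 ± 0.40), Scd1 (1.25 ± 0.25, adjusted p = 0.00601), Sqle (1.14 ± 0.29) and Nsdhl (1.03 ± 0.32). Without replicate 2 of MSC IV 2 of these calls held, Stard4 and Scd1. Without replicate 1 of MSC I 1 held, Stard4, and Mvd was called in the other direction, lower in MSC I (-1.01, adjusted p = 0.0495). Nsdhl also lost its call without replicate 1 of MSC IV. Between MSC IV and MSC V 4 genes were called, all lower in MSC IV, against 7.46% of tested genes called lower and 10.9% either way: Stard4 by 2.14 ± 0.32, Elovl6 by 1.63 ± 0.35, Nsdhl by 1.29 ± 0.32 and Sc5d by 1.12 ± 0.23. That count was 1, Stard4, without replicate 2 of MSC IV or replicate 1 of MSC V, and Nsdhl lost its call without either array of either preparation. Stard4 was called in both pairs under all 18 alternatives. It was also higher in MSC III than in MSC IV (1.35 ± 0.32, adjusted p = 0.0318), as 1 of 31 genes against 5.52% called higher and 7.99% either way, a call lost without replicate 2 of MSC III or either array of MSC IV. Without replicate 1 of MSC III 2 genes were called in that pair.

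In the other pairs the called genes were sterol enzymes. MSC II was below MSC V in 3, against 3.21% of tested genes called lower and 5.56% either way, Idi1 by 1.89 ± 0.50, Hmgcs1 by 1.58 ± 0.42 and Sc5d by 1.02 ± 0.23, with adjusted p-values from 0.0264 to 0.0454. None of these 3 held without either array of MSC II or V, and 1 held without either array of MSC IV. MSC I was above MSC II in Idi1 (1.54 ± 0.50, adjusted p = 0.0444) and Hsd17b7 (1.26 ± 0.40, adjusted p = 0.0421), 2 of 31 against 8.11% called higher and 14.9% either way. Both calls were lost without replicate 1 of MSC I, replicate 1 of MSC II or any array of MSC IV or V, Idi1 also lost its call without replicate 2 of MSC II, and 6 genes were called without replicate 2 of MSC I. MSC I was below MSC V in Mvd (-1.30 ± 0.33, adjusted p = 0.0271), 1 of 31 against 4.43% called lower and 10.5% either way, which did not hold without either array of MSC V and lost its call without replicate 2 of MSC I, where Scd1 was instead called, higher in MSC I (1.37, adjusted p = 0.00916). In MSC I against III, II against III, II against IV and III against V 0 genes were called by limma, where the background was 11.3%, 3.02%, 9.06% and 2.07%, and 4, 1, 5 and 7 genes had an unadjusted p under 0.05. In the first of these pairs 2 genes were called without replicate 2 of MSC I, and in MSC II against IV 1 was called without either array of MSC III.

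Most of the 31 genes moved together between the 2 arrays of MSC I, of MSC II and of MSC III. In MSC I, replicate 1 was above replicate 2 in 29 of 31 genes, with Scap and Me1 as the exceptions, and in all 17 sterol enzymes, by 0.50 to 1.71 log2 with a median of 0.80. In MSC II and MSC III replicate 2 was above replicate 1, in 30 and 29 of 31 genes and in all 17 sterol enzymes both times, with sterol medians of 0.58 and 0.61 log2 in size. Over all tested genes the medians of these differences were -0.00844, -0.0328 and -0.00439. Gaps of 0.5 log2 or more (a fold of 1.41) in that direction were seen in 23 of 31 genes in MSC I, 13 in MSC II and 16 in MSC III, against 8.31%, 9.76% and 6.73% of all tested genes. Of 7 further sterol and isoprenoid enzymes, 3 were higher in replicate 1 of MSC I, and 3 and 5 in replicate 2 of MSC II and III. The same counts were 9, 11 and 11 of 16 further fatty acid enzymes, and 9, 8 and 8 of 10 fatty acid oxidation genes. Among all tested genes the shares in these directions were 48.8%, 54.2% and 50.7%. With 1 array on each side these are descriptions, with no test.

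**Figure D4:**
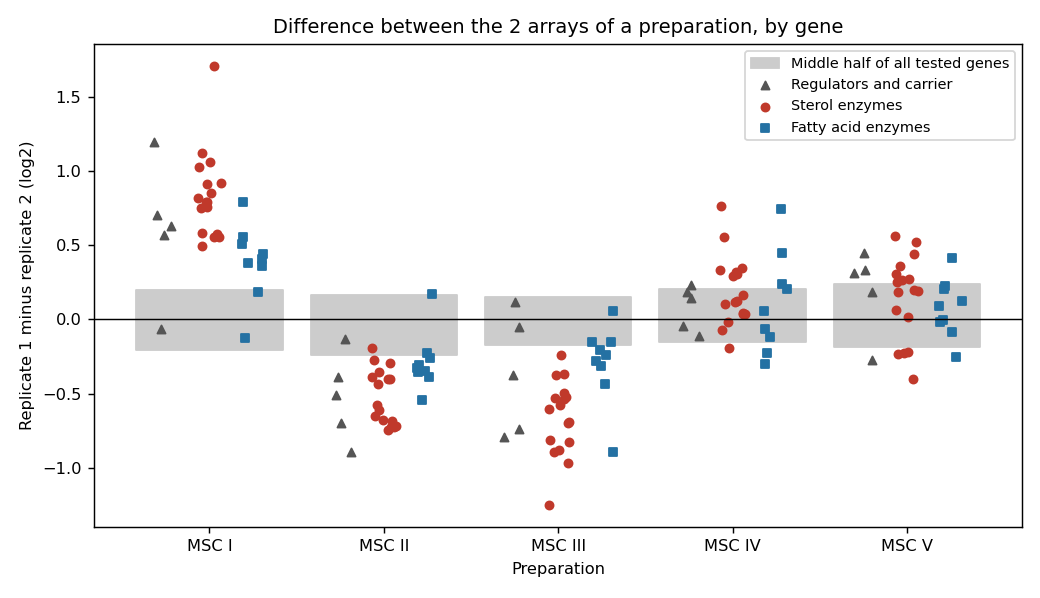
Replicate 1 minus replicate 2 (log2) for each of the 31 genes in each preparation, by role, over a grey band for the middle 50% of all tested genes. All 17 sterol enzymes lie above 0 in MSC I and below 0 in MSC II and III, mostly outside the band, while in MSC IV and V they lie on both sides.

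Tm7sf2 (1.71), Insig1 (1.2), Mvk (1.12) and Idi1 (1.06) lay furthest apart in MSC I, and Idi1 (-1.25) in MSC III. Fatty acid enzymes followed in sign with smaller sizes, with medians of 0.41 in MSC I, -0.33 in MSC II and -0.24 in MSC III. In MSC IV and MSC V replicate 1 was the higher in 22 of 31 genes each, with medians of 0.13 and 0.19, and 3 and 2 genes reached 0.5 log2, against 8.08% and 9.38% of tested genes. The median SD between replicates was 0.34 log2 for the 31 genes and 0.18 for all tested genes, while the median SD of preparation means was 0.33 and 0.30. The gap between the 2 arrays of a preparation was larger than the difference of that preparation from the other four for 15 of the 17 sterol enzymes in MSC I, 11 in MSC II and 16 in MSC III, but for 5 in MSC IV and 3 in MSC V.

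The mean level of the 17 sterol enzymes gives the same picture by array. It was 10.85 and 10.01 log2 in MSC I, 9.79 and 10.31 in MSC II, 9.86 and 10.52 in MSC III, 10.11 and 9.92 in MSC IV, and 10.90 and 10.74 in MSC V. Replicate 1 of MSC I lay within the span of MSC V, and replicate 2 of MSC I lay within that of MSC IV. Of the 9 fatty acid enzymes, the mean level was 12.04 and 11.65 in MSC I and 11.30 and 11.19 in MSC IV, with both MSC IV arrays the lowest of 10.

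**Figure D5:**
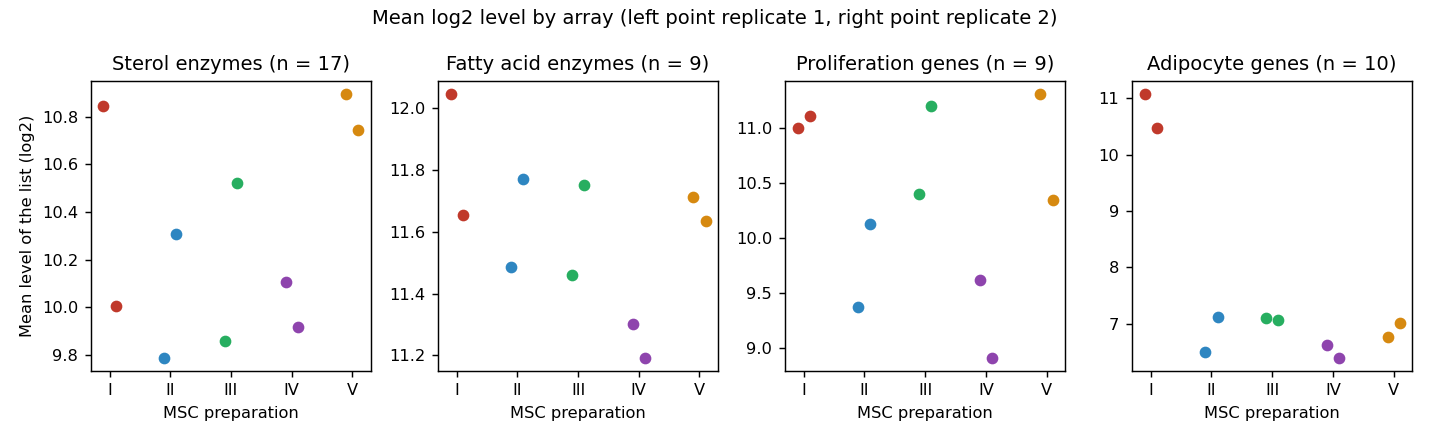
Mean level (log2) over the genes of 4 lists on each array, replicate 1 as the left point and replicate 2 as the right point of each preparation; axes differ and do not start at 0. Sterol enzymes differ within MSC I, II and III, proliferation genes differ within MSC II, III, IV and V, and adipocyte genes are high in MSC I.

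Proliferation genes also differed between replicates, but not always with the sterol enzymes. Replicate 2 was the higher in 8 of 9 of them in MSC II and in MSC III, as in the sterol enzymes, with median sizes of 0.72 and 0.95 log2. Replicate 1 was the higher in 9 of 9 in MSC IV and MSC V (medians 0.75 and 1.07), where the sterol medians were 0.13 and 0.20. In MSC I, where the sterol enzymes lay furthest apart, 3 of 9 were higher in replicate 1 and the median was -0.0467. All 10 adipocyte genes were higher in replicate 1 of MSC I and all 10 in replicate 2 of MSC II. In replicate 2, 6 of 10 were higher in MSC III, and 7 of 10 in MSC IV and in MSC V. Of the 17 sterol enzymes, 14 in MSC IV and 13 in MSC V were higher in replicate 1. Among all tested genes, the share higher in replicate 1 was 48.8%, 45.8%, 49.3%, 52.5% and 53.6% in MSC I to V. Outside MSC I 4 of the adipocyte genes, Adipoq, Cd36, Plin1 and Cidec, were below the table median. The part of either list in the sterol values was not tested.

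The other genes of these pathways were read from lists drawn up with earlier results of these data known. The background for all these counts was the 29.1% of tested genes called over the preparations. Of 7 further sterol and isoprenoid enzymes tested, 2 were called, a share near that background. Cyb5a, the cytochrome that passes electrons to Scd1 and Sc5d, was higher in MSC I than in the other four (1.63 ± 0.25, adjusted p = 0.00215) and lower in MSC IV (-1.46 ± 0.25, adjusted p = 0.00481), with arrays from 10.07 in MSC IV to 13.13 in MSC I. Lbr, a nuclear membrane protein that also reduces sterols, had a range of 1.08 (adjusted p = 0.00654) and its highest mean in MSC V. Of 7 genes of SREBP processing 1 differed, Paqr3, a Golgi protein, lower in MSC I (-1.90 ± 0.45) and higher in MSC IV (2.09 ± 0.45). Of 10 genes of cholesterol uptake and transport 2 differed, the lipoprotein receptor Vldlr (-3.38 ± 0.66 in MSC I and 2.70 ± 0.66 in MSC IV) and Gramd1b, which moves cholesterol from the cell membrane inward (range 1.30).

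Of the genes of cholesterol efflux under the sterol receptor LXR, 2 of 9 tested passed the filter through MSC I alone and are given by their levels only. The LXR gene Nr1h3 measured 9.15 and 9.22 in MSC I and at most 6.18 elsewhere, and the exporter Abcg1 7.98 and 6.98 in MSC I and at most 5.71 elsewhere, below the table median. Of the other 7, 5 were called over the preparations (background 29.1%), and in MSC I 3 were higher and 1 lower (background 13%). The exporter Abca1 was higher there, with 9.03 and 8.48 against 5.61 to 6.58 elsewhere, and so was Ch25h, which makes 25-hydroxycholesterol. Most arrays of both genes outside MSC I lay below the table median, so no size is given. Abca1 is among the other 7, though outside MSC I it reached 6.58 at most, against the table median of 6.55. It thus passed the filter largely through MSC I, and nothing is read from the counts of the other 7 beside their backgrounds. Ch25h differed within preparations, with 9.49 and 11.35 in MSC I and 8.71 and 5.94 in MSC III.

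Of 16 further fatty acid enzymes tested 4 differed, against the same 29.1%, and MSC I had lower Elovl7 (5.08 and 5.61 log2, below the table median, against 8.13 to 10.17 elsewhere) and Elovl4 (-1.84 ± 0.19), elongases of the same family as Elovl6, in the preparation where Elovl6 itself had a difference of 0.48 ± 0.28 (adjusted p = 0.189). Mid1ip1, which binds acetyl-CoA carboxylase, was higher in MSC IV (1.16 ± 0.33, adjusted p = 0.0328). Of 6 genes of glycerolipid synthesis 3 differed: Agpat2, which makes phosphatidic acid, was higher in MSC I (1.31 ± 0.15), Dgat2, which completes triglycerides, lower in MSC V (-1.20 ± 0.22), and Gpam, which starts them, had a range of 1.18. Of 10 genes of fatty acid oxidation 0 were called in limma's F test, although 6 had an unadjusted p under 0.05 and 5 an adjusted p under 0.05, at ranges under 1 log2, near the 52.2% of all tested genes.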

How the data were processed

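RNA of 5 cultured preparations of mouse bone marrow stromal cells, with 2 arrays each, was labelled with biotin and measured on Affymetrix arrays, per the labels' protocols. The deposited values were on the log2 scale, and RMA and Partek are named in the submitters' processing notes, and their versions were not given in the sources used here. The RMA method scales the arrays to one another, so a change in total RNA per cell cannot be seen. The deposited values were not on 1 identical distribution, with array medians from 6.45 to 6.63 log2. Of 35399 probe sets, 21789 had 1 symbol, 1621 several and 11989 none in the platform annotation, and 21698 matched the reference by gene identifier.

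Genes with at least 2 arrays above the table median were fitted with limma 3.58.1 in R 4.3.3 (lmFit, eBayes): a moderated F over 5 preparations, each preparation minus the other four (mean of their means), and 10 pairs. P-values were adjusted by Benjamini-Hochberg over all 10971 genes tested, within each comparison. The fit was tested on simulated data. Alternatives were the scaling, the filter, the probe set rule, the variance model, the fold minimum, the reference, a replicate block, and each array left out in turn. The genes and lists were chosen with earlier results of these data known. All listed genes could be named, and of other lists up to 4 called genes, those with the largest differences. Shares of all tested genes were not counted for unadjusted p-values, nor for the preparation with the highest or lowest mean, so those counts have no background. The number of arrays limits the precision. Promoters came from RefSeq (GRCm38.p6).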

Additional observations from a re-analysis of the deposited data

How the results depend on the processing

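The 51 single-gene results examined were the ranges of the 31 genes and the differences that had been called. A range cannot change sign, and none of the called differences did. The median difference of the 31 genes changed sign in MSC I, II and III without replicate 1 of the same preparation (-0.0505, 0.0889 and 0.11). Of the 27 gene results that were called, with 490 alternative values, 373 kept their call and 117 lost it, and of 24 that were not called, with 428 values, 9 passed. Without the filter on low values 3 genes were called over the preparations, 0 in MSC V, 0 in MSC I against II, 1 in MSC II against V and 0 in MSC III against IV. After a further quantile normalisation 1 was called in MSC I, 2 in MSC I against V and 1 in MSC II against IV. With no minimum difference the counts were 4 in MSC I, 6 in MSC IV, 2 in MSC V, 5 in MSC I against II, 1 in I against III, 10 in I against IV, 3 in I against V and 7 in IV against V. In MSC V, 2 were called without MSC I in the reference and 0 without MSC IV in it.

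With each array left out in turn, counts ran from 2 to 9 over the preparations, 0 to 3 in MSC I, 0 to 1 in MSC II, 0 to 2 in MSC IV, 0 to 2 in MSC V, 0 to 6 in MSC I against II, 0 to 2 in I against III, 2 to 7 in I against IV, 0 to 1 in I against V, 0 to 1 in II against IV, 0 to 3 in II against V, 0 to 2 in III against IV and 1 to 6 in IV against V. These fits took the spread of a preparation left with 1 array from the other preparations. Replicate numbers did not line up between preparations. Deviations of like-numbered arrays correlated from -0.555 to 0.203 over 10 pairs of preparations, with 1 pair above 0.1. Because like-numbered arrays alone were compared, these values cannot tell whether arrays were grouped in another order. With the replicate block, 2 genes were called over the preparations, 2 in MSC IV, 5 in MSC I against IV, 3 in IV against V, and 0 in MSC V, I against II, I against V, II against V and III against IV. Centring or quantile normalisation left the median of the 31 genes negative in MSC IV (-0.36 and -0.35) and positive in MSC V (0.60 and 0.52).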
